A study of Mus musculus with 5 samples.

Results

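Chromatin accessibility was examined at the loci of 9 genes of the JAK-STAT pathway in naïve CD8+ T cells, namely the transcription factors Stat3, Stat4, Stat5a and Stat5b, the kinase Jak1, and the inhibitors Socs1, Socs2, Socs3 and Cish. A locus was the gene body with 50 kb on either side, and its members were all peaks with the summit inside it, whatever their values. The loci held 79 of the 31116 peaks of the WT list and 60 of the 25525 peaks of the dKO list. Chromatin accessible (ChrAcc) sites were peaks with at least 4-fold enrichment over the local background, p under 1e-05 and q under 0.05, and 71 WT and 59 dKO peaks met these criteria. Merging sites that overlapped by at least 1 bp gave 83 union sites of 31898 in all.

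The series holds DNase-seq libraries, in which DNase I releases short fragments from open chromatin, of 3 WT and 2 dKO replicates. WT mice were hCD2-Cre+ Rosa26GFP Tcf7+/+Lef1+/+ and dKO mice hCD2-Cre+ Rosa26GFP Tcf7fl/flLef1fl/fl, so that both carried the Cre transgene and the GFP reporter and dKO cells lacked the transcription factors Tcf1 and Lef1. The mice were 6 to 12 weeks old, and GFP+ TCRbeta+ CD62Lhi CD44lo-med CD8+ cells were sorted from spleen. The hCD2-Cre transgene is most active in mature peripheral T cells, and sorting for GFP selected cells in which Cre had acted. The replicates of each genotype were pooled into 1 peak list, so the values below carry no spread between replicates, no p-value between genotypes was computed, and every difference describes these pools. In a bulk pool, fewer cells with an open site and less opening per cell cannot be told apart. The WT pool held 83923734 fragments and the dKO pool 62242963. As a check of the labelled cell type, 8 of 8 T cell genes had a ChrAcc site within 1 kb of a start in WT. In dKO cells 7 of 8 did, and Cd3d had none. Of these genes, Cd8a and Cd8b1 encode CD8, while Cd3d, Cd3e, Cd3g, Cd2, Cd5 and Lck are not particular to CD8 T cells. No site lay at the starts of 3 CD4 T cell and 6 B cell markers in either list. Of the other marker lists, Il2ra (1 of 3 Treg genes) and Prf1 (1 of 4 NK cell genes) had a site in both lists, and Itgam (1 of 5 myeloid genes) had one in WT only.

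Cytokines bind receptors that lack kinase activity of their own and that rely on bound JAK kinases, such as Jak1. The kinases phosphorylate STAT proteins, which pair, enter the nucleus and bind the palindrome TTCNNNGAA, known as a GAS element. In T cells Stat5a and Stat5b act downstream of IL-2, IL-7 and IL-15, Stat3 downstream of IL-6 and IL-21, and Stat4 downstream of IL-12. Cish, Socs1, Socs2 and Socs3 are themselves induced by STATs and damp the same receptors, which closes a negative feedback loop. Naïve CD8+ T cells depend on IL-7 and self-ligands for survival.

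The GAS elements at the starts of 3 SOCS family genes are shown first, because the sites of the WT and dKO lists differed over the first pair of Cish and the element of Socs3, while Socs2 had a pair without a site in either list. They are given on the plus strand of mm9, with TTCNNNGAA in capitals. Cish held pairs on both sides of the start of transcript Cish-002, at chr9:107198985-107199014 and chr9:107199093-107199122. In Socs3 an element lay 53 bp before the start of the coding transcript Socs3-001, within chr11:117830501-117830621. In Socs2 a pair lay before the start of transcript Socs2-001, within chr10:94879498-94879597.
Cish, before Cish-002: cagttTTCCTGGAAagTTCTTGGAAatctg
Cish, after the start of Cish-002: ggTTCTAGGAAgatgaggcTTCCGGGAAgg
Socs3: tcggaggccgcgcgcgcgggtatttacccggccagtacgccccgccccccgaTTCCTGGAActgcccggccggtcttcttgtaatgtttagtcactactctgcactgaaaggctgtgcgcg
Socs2: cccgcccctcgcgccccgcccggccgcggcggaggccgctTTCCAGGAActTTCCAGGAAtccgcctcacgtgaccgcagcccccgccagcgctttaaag

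In the 500 bp before and 1500 bp after the 5′ end of the gene, Cish held 5 TTCNNNGAA matches. Socs2, Socs3 and Jak1 held 2 each, Socs1 and Stat5a 1 each, and Stat3, Stat4 and Stat5b none. Among 22225 protein-coding genes, 44.8% held at least 1 match in such a window, 12.9% at least 2, and 113 genes (0.508%) at least 4. A match of letters describes the sequence and is not evidence of STAT binding.

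The remaining sequences, also from the plus strand of mm9, are the sites with the core Tcf/Lef sequence ATCAAAG (in capitals, on either strand), a Socs1 site with 2 GAS elements (in capitals) and the strongest WT-only site, the strongest dKO-only site and the shared site with the widest gap in rank between the lists. They lie at chr4:100847946-100848199 (Jak1 intron 8), chr11:100685322-100685607 (Stat5b intron 1), chr16:10772243-10772531 (Socs1 flank), chr11:100793017-100793161 (Stat3 intron 1), chr9:107238373-107238480 (Hemk1 intron 4 in the Cish flank) and chr1:52001760-52001924 (Stat4 flank). The last 3 hold neither motif.
Jak1 intron 8: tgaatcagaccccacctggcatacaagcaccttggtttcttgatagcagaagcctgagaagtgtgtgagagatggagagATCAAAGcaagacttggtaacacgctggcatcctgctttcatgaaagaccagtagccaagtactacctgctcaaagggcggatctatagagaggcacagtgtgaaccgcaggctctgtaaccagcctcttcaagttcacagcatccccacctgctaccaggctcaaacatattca
Stat5b intron 1: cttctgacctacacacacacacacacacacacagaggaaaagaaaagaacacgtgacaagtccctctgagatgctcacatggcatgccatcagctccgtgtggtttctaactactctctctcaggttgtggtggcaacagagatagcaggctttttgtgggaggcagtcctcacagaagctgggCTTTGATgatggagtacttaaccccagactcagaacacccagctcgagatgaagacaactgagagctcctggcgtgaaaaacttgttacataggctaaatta
Socs1 flank: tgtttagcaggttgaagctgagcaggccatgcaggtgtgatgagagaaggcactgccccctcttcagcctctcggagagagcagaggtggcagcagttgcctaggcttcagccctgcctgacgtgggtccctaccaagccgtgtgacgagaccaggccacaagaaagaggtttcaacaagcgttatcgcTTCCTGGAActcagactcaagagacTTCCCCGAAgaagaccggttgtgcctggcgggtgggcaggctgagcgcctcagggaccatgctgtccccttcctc
Stat3 intron 1: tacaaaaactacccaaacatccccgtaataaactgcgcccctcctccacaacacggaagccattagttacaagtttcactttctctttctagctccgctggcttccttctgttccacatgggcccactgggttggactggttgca
Cish flank: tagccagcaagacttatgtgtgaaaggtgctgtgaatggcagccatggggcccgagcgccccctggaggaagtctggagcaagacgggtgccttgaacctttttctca
Stat4 flank: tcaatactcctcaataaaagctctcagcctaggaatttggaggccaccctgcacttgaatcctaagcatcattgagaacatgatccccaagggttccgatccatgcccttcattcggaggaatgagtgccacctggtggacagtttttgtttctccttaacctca

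Across all loci, 47 of the 83 union sites (56.6%, 95% Wilson interval 45.9 to 66.8%) were shared between the genotypes, compared with 64.4% of all union sites. The interval covers counting error only, as do the other intervals of shares and of pileup ratios. Of the 71 WT sites, 24 (33.8%, 23.9 to 45.4%) had no dKO site, against 27.6% of the whole WT list. Of the 59 dKO sites, 12 (20.3%, 12.04 to 32.3%) had no WT site, against 14.4% of the whole dKO list. Both intervals contain the share of the whole list. When both lists were limited to their top 20000 peaks by −log10 p, 10 sites were WT-only and 9 dKO-only. The WT-only sites were distributed over all loci with sites, with 9 at the STAT genes, 6 at Jak1 and 9 at the SOCS family genes. Of the dKO-only sites, 8 lay at the SOCS family genes, 3 at Jak1 and 1 at the STAT genes.

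Sites found in 1 list were mostly weak. The strength of a site is given as its pileup, the number of fragments of the pool over the summit, and as the percentile of its fold enrichment within its own list, where 100 is the strongest and 0 stands for no ChrAcc site. The 24 WT-only sites had medians of percentile 23.6 (range 0.186 to 76.8), pileup 39.5 fragments and width 151 bp. The 47 shared sites had medians of 59.3, 71 fragments and 215 bp in the same list. The 12 dKO-only sites had a median percentile of 12.8 (range 0.133 to 57.5), compared with 57.5 for the shared sites in the dKO list. The whole lists were alike, with medians of percentile 24.3, 37 fragments and 146 bp for all WT-only sites. All dKO-only sites had a median percentile of 18.0. At the loci 3 of the WT-only sites reached percentile 50, and 1 of the dKO-only sites. A peak that missed the criteria covered the place in the other list at 1 WT-only and 2 dKO-only sites, and at the others the other list had no peak. The part of depth and of width in these absences was not tested.

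At the shared sites, 6 of 47 (12.8%) ranked at least 20 percentile points higher in dKO cells, against 6.75% of all shared sites, and 7 (14.9%) ranked at least 20 points higher in WT cells, against 13.7%. Which of these counts was larger turned with the setting: at 8-fold enrichment or more 6 ranked higher in dKO and 3 in WT cells, with the top 20000 peaks 11 and 4, and 4 and 11 when ranked by pileup. The median difference in percentile, dKO minus WT, was −0.67 points (−3.64 to 6.73) at the loci and −2.56 points over all 20533 shared sites. The bracket is a 95% interval of the median over the 47 sites, which are not replicates. Pileups were also compared directly, as fragments over the summit divided by the fragments of the pool. The median ratio of dKO over WT was 0.912 over all shared sites and 0.894 at the loci, where it ranged from 0.416 to 1.48. The 95% exact interval of the ratio lay above 0.912 at 4 of the 47 sites (8.51%), against 7.56% of all shared sites, and below it at another 4 (8.51%), against 5.39%. The sites above lay at Stat5b and Cish in pairs, and the sites below lay at Stat3, Stat4, Jak1 and Socs3.

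**Figure D1:**
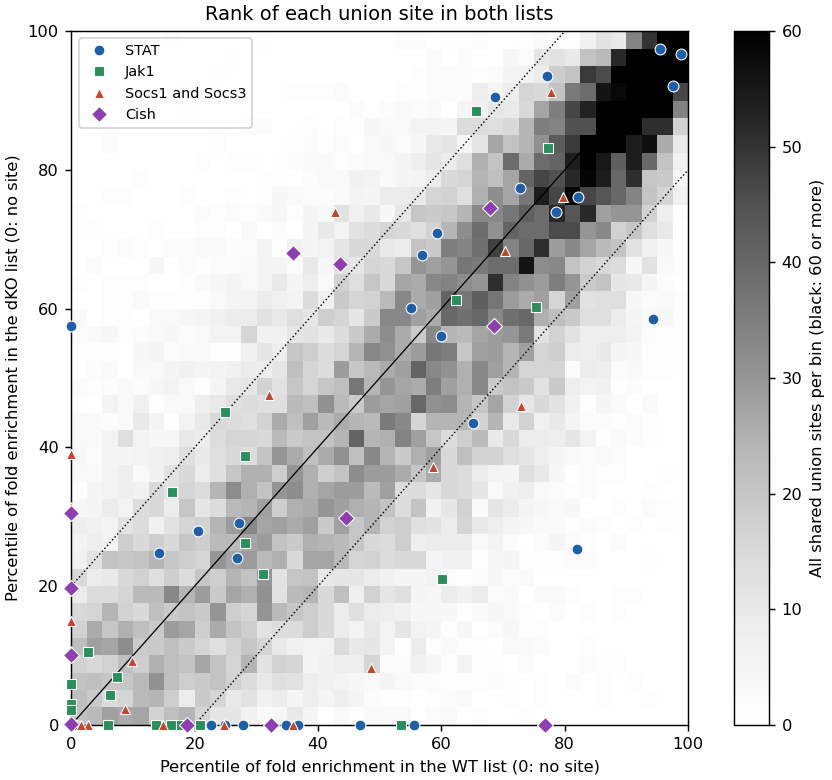
Percentile of fold enrichment of each union site at the loci in the WT list (x axis) and the dKO list (y axis), over the density of all shared union sites in grey, with dotted lines at a difference of 20 points. The STAT site furthest below the diagonal is in Stat3 intron 1 (82.0 in WT, 25.3 in dKO), and sites on an axis have no ChrAcc site in the other list.

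Stat3, Stat5a and Stat5b lie side by side on chromosome 11, at chr11:100746412-100800854 (minus strand), chr11:100720665-100746483 (plus strand) and chr11:100642045-100712038 (minus strand), so that their windows overlap and share sites. Counted once, the block held 18 union sites. All 18 were WT sites and 12 were dKO sites. Hence 6 sites were WT-only and none was dKO-only. In the whole lists, 27.6% of the WT sites were WT-only and 14.4% of the dKO sites were dKO-only. Distances below run from the 5′ end of the named gene, with negative values upstream.

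At Stat3, the site at the start (-0.204 kb) had 114 fragments in WT and 76 in dKO cells and ranked at percentiles 72.7 and 77.5. The site in intron 1 at 7.78 kb had 69 fragments in WT and 25 in dKO cells and ranked at 82.0 and 25.3, the widest gap among the 47 shared sites. Its depth-scaled ratio of 0.489 (0.296 to 0.782) lay below the median of all shared sites. In the 3′ part of the gene, which also lies in the flank of Stat5a, the site in intron 20 (34.3 kb from the 5′ end of Stat5a) had 64 and 32 fragments and ranked at 65.1 and 43.5, with a ratio of 0.674 (0.427 to 1.05). A site in intron 21 was WT-only, with 35 fragments at percentile 22.6. Thus the promoter held its rank, while the sites in introns 1 and 20 ranked lower in the dKO list and that in intron 21 was absent. Only the interval of the intron 1 site lay below the median of all shared sites. The intron 20 site differed by −19.2 points with the top 20000 peaks. The intron 21 site was near the median percentile of all WT-only sites (24.3), and 27.6% of all WT sites had no dKO site.

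At Stat5a, the site at 1.15 kb, which lies at the start of several coding transcripts, had 88 fragments in WT and 47 in dKO cells and ranked at 78.5 and 73.9. At Stat5b, the site at the annotated start of the gene (0.171 kb) was WT-only and among the weakest of its list, with 32 fragments at percentile 0.186 and a GC content of 81.6%. The alternative coding start of transcript Stat5b-002 (28.1 kb) had a shared site, with 72 and 36 fragments at percentiles 27.1 and 29.1. Its ratio was 0.674 (0.439 to 1.02), and ranked by pileup it differed by −26.9 points, dKO minus WT. The intron 1 site with ATCAAAG (26.6 kb), printed above, had 103 and 55 fragments, ranked at 56.9 and 67.8 and had a ratio of 0.720 (0.509 to 1.01). It therefore stood higher by rank in dKO cells and lower by scaled pileup, with an interval that contained the median of all shared sites.

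Further into Stat5b, the intron 3 site (46.0 kb), with 2 Runx matches (TGTGGTT), had 59 fragments in WT and 61 in dKO cells although the dKO pool was smaller. It ranked at 68.6 and 90.5, with a ratio of 1.39 (0.958 to 2.03). With all peaks as deposited, it ranked 19.7 points higher in dKO cells. The site at the start of the neighbouring gene Ghdc (79.7 kb) had 64 and 65 fragments, ranked at 77.1 and 93.6 and had a ratio of 1.37 (0.955 to 1.97). The strongest site of the block, at the start of Rab5c (112 kb), had 169 and 100 fragments and ranked at 98.8 and 96.7. Of the WT-only sites, the strongest lay in Hcrt intron 2 (89.1 kb), with 58 fragments at percentile 55.5. The others were in Kcnh4 (105 and 91.4 kb), with 36 and 25 fragments at percentiles 34.8 and 0.637, and in Stat5b intron 1 (4.62 kb), with 52 fragments at 24.9. The other shared sites of Stat5b (2.50, 36.0 and 90.6 kb) differed by less than 10 points between the lists.

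**Figure D2:**
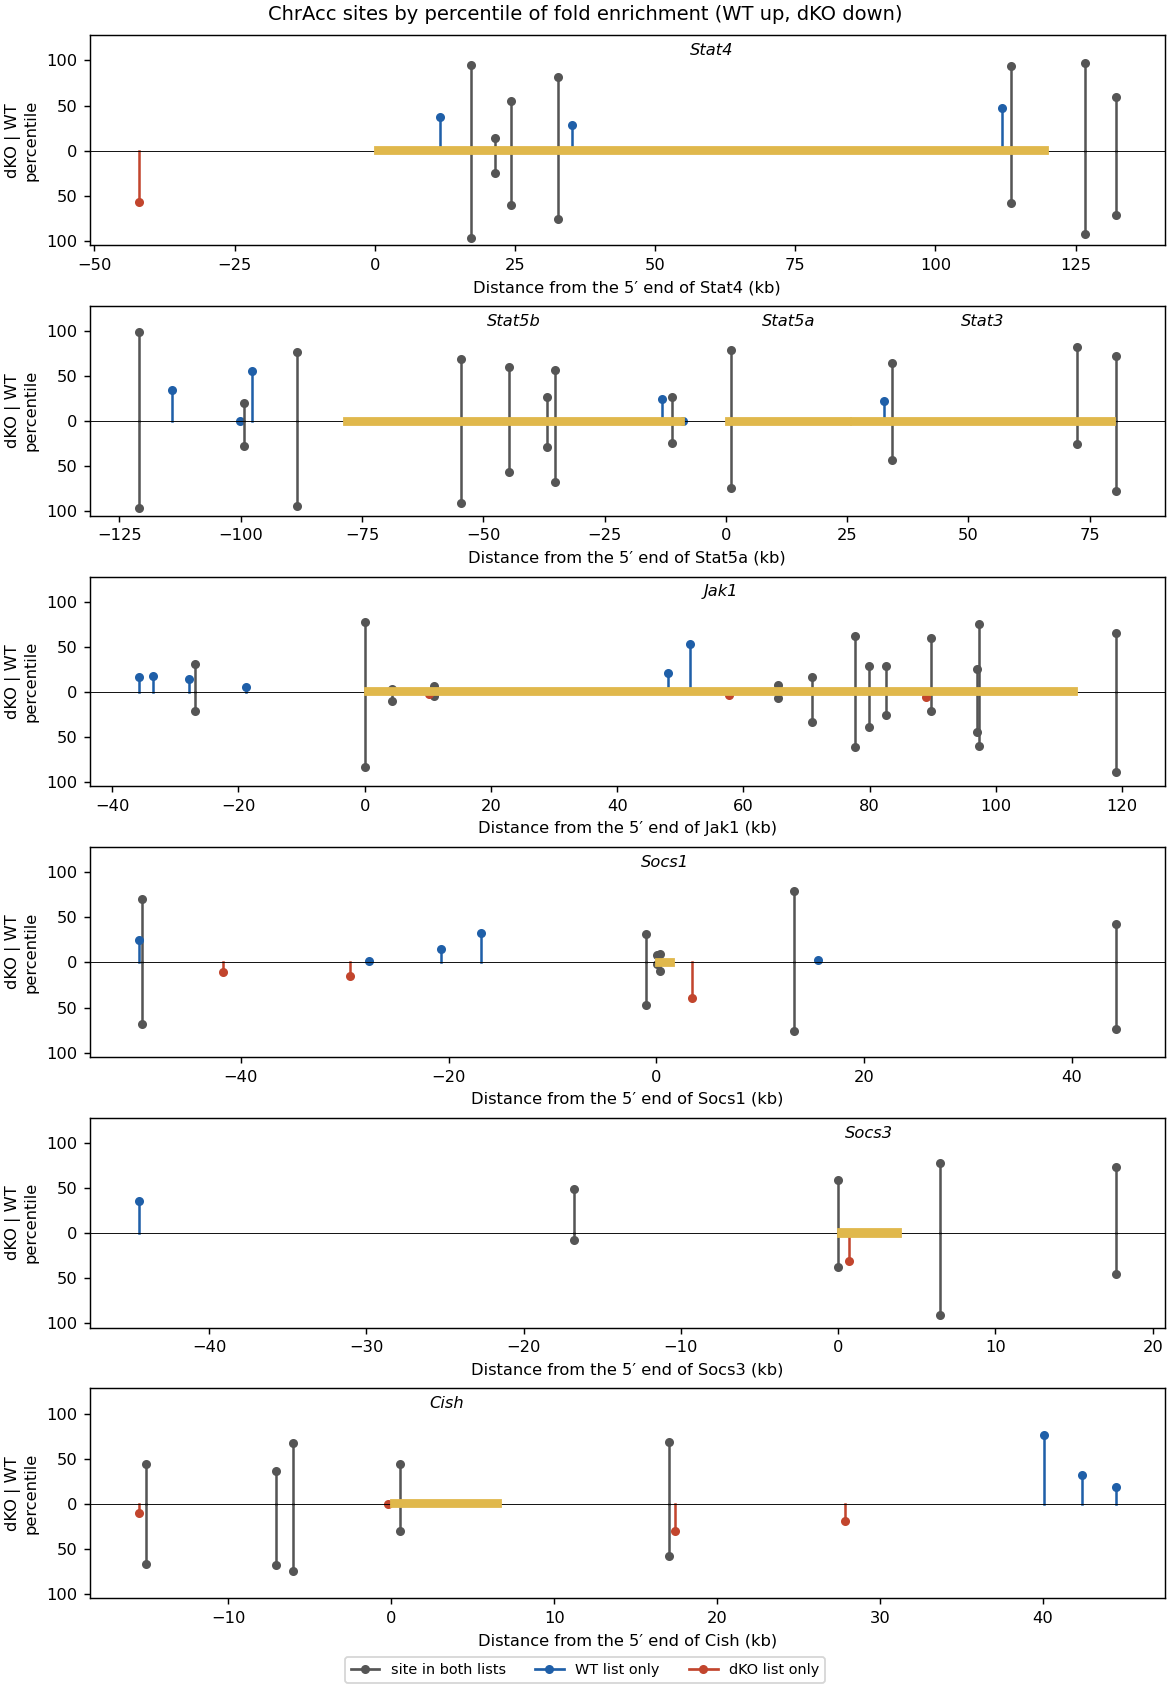
Union sites at 8 of the loci by distance from a gene's 5′ end in kb (x axis, positive in the direction of transcription), with the percentile of fold enrichment in WT upward and in dKO downward (y axis), and gene bodies as yellow bars. WT-only sites (blue) occur in every panel, and the Stat5b, Stat5a and Stat3 panel has no dKO-only site (red), against 14.4% of the whole dKO list. Socs2 is not drawn because it had no peak.

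Stat4 (chr1:52043992-52164032, plus strand) held 10 WT and 8 dKO sites, of which 7 were shared. The strongest site inside the gene, in intron 2 at 17.1 kb, had 129 fragments in WT and 109 in dKO cells and ranked at 95.5 and 97.4. The site at 21.4 kb, at the start of transcript Stat4-201, had 52 and 50 fragments and ranked at 14.3 and 24.7. The shared sites in intron 1 (24.3 kb) and intron 3 (32.6 kb) of that transcript ranked at 55.1 and 60.1 and at 82.1 and 76.1. At the far end, the site in intron 17 (114 kb) had 109 fragments in WT and 41 in dKO cells and ranked at 94.3 and 58.5, with a ratio of 0.507 (0.345 to 0.732) below the median of all shared sites. A WT-only site lay next to it in intron 16 (112 kb), with 52 fragments at percentile 46.7. The other WT-only sites, in intron 2 (11.6 kb) and intron 3 (35.2 kb), had 37 and 52 fragments at percentiles 36.8 and 27.9.

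Upstream of Stat4, at -42.1 kb, an intergenic site was dKO-only, with 38 fragments at percentile 57.5, the highest of the 12 dKO-only sites. At the median ratio of all shared sites, 56.2 fragments would stand for it in the WT pool, whose list has no peak there. The 2 shared sites beyond the 3′ end of the gene differed by less than 20 points between the lists.

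Jak1 (chr4:100824972-100937887, minus strand), the kinase shared by the receptors of IL-2, IL-7, IL-6 and interferons, held 19 WT and 16 dKO sites, 13 of them shared. At its start (-0.032 kb) the site had 118 fragments in WT and 86 in dKO cells and ranked at 77.3 and 83.2, with a ratio of 0.983 (0.735 to 1.31). The site in intron 8 with ATCAAAG (89.8 kb), printed above, had 94 and 29 fragments and ranked at 60.1 and 21.01. Its ratio of 0.416 (0.264 to 0.637) was the lowest of the 47 shared sites. In intron 11, further into the gene, a pair of neighbouring sites went opposite ways. The site at 96.9 kb had 46 and 47 fragments and ranked at 24.95 and 45.1, and the site at 97.3 kb had 89 and 54 fragments and ranked at 75.3 and 60.3. The site beyond the gene in Raver2 intron 11 (119 kb) had 75 and 64 fragments and ranked at 65.7 and 88.5. The intervals of the ratio of these 3 sites contained the median of all shared sites. Ranked by pileup, the site at 119 kb stood 9.19 points higher in dKO cells. With all peaks as deposited, the site at 96.9 kb stood 16.3 points higher.

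The WT-only sites of Jak1 fell into 2 stretches. In intron 1, the site at 51.6 kb had 66 fragments at percentile 53.4 and the site at 48.1 kb had 43 fragments at 20.8. Upstream of the gene, 4 of the 5 sites between -18.8 and -35.8 kb were WT-only, with 23 to 36 fragments at percentiles 5.91 to 17.2. The fifth, at -26.9 kb, was shared, with 46 and 29 fragments at 31.0 and 21.8. The 3 dKO-only sites were all inside the gene and weak, with 17 to 27 fragments at percentiles 2.19 to 5.82. The other 7 shared sites of the gene, all in introns, differed by less than 20 points.

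**Figure D3:**
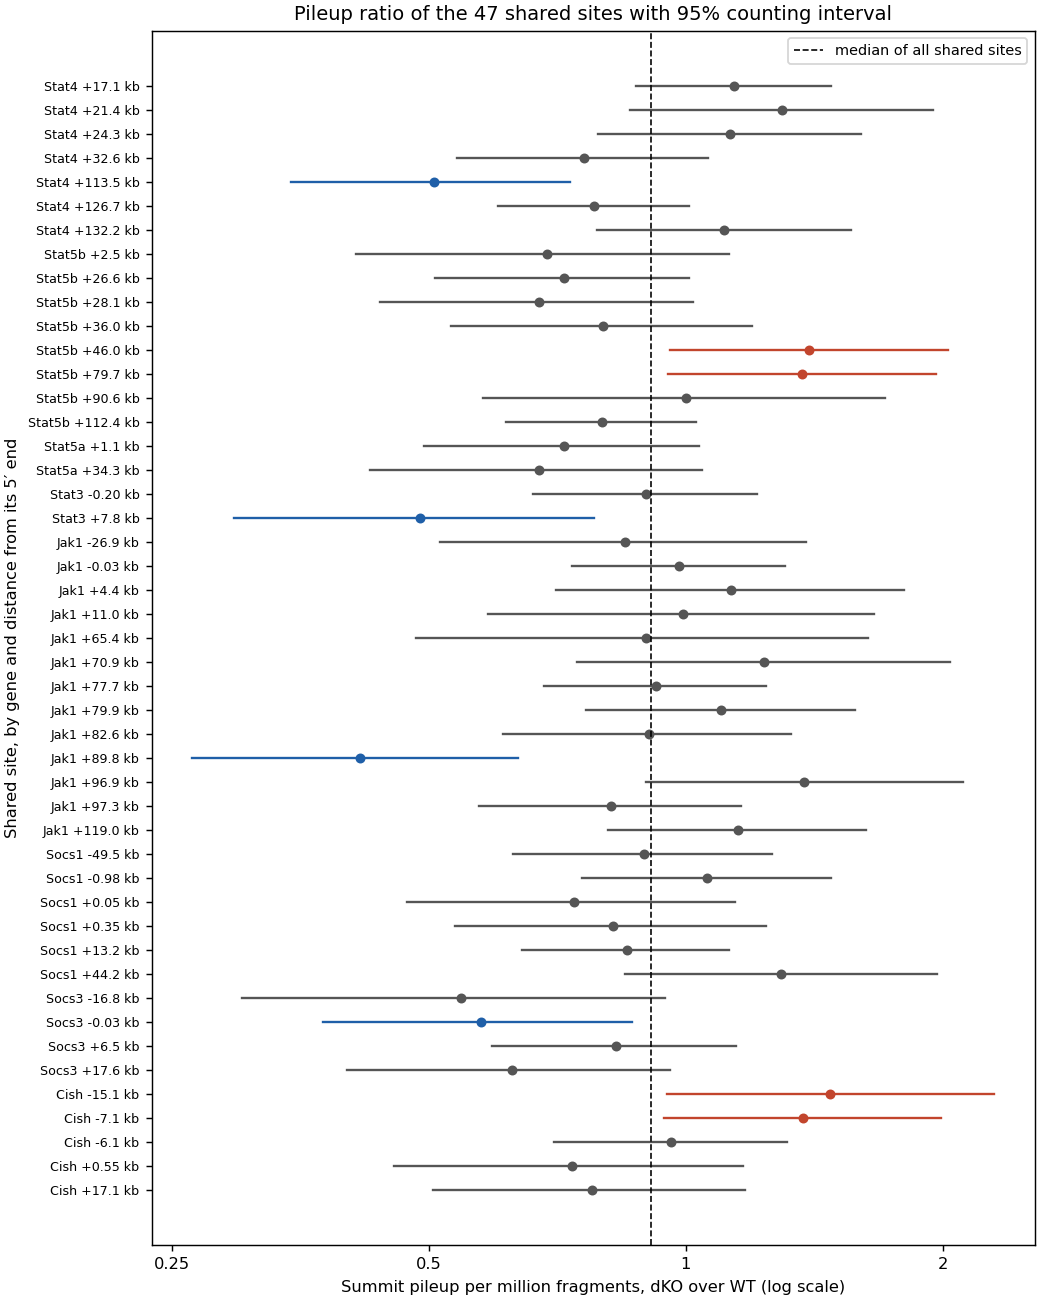
Ratio of depth-scaled summit pileup, dKO over WT (x axis, log scale), of the 47 shared sites (y axis, by gene and distance), with 95% exact counting intervals and the median of all shared sites as a dashed line. The interval lies above the median at 4 sites (red), at Stat5b and Cish, and below it at 4 (blue), at Stat4, Stat3, Jak1 and Socs3.

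Socs1 (chr16:10783901-10785629, minus strand), a strong inhibitor of JAK kinases, held 11 WT and 9 dKO sites, 6 of them shared. Its start region held 2 weak sites by fold enrichment, at 0.349 and 0.046 kb, of which the site at 0.046 kb covered the start. They ranked at 9.83 and 8.76 in WT and 9.16 and 2.2 in dKO cells. Their pileups of 64 and 62 fragments in WT and 39 and 34 in dKO cells were not low, and ranked by pileup they stood at 57.0 and 55.0 in WT and 43.1 and 33.5 in dKO cells. The local background around them, recovered from the pileup and the fold enrichment, was 12.6 and 12.5 fragments in WT and 7.35 and 7.30 in dKO cells, compared with medians of 7.20 and 4.34 at the shared sites of all loci. The site just upstream (-0.983 kb) had 84 and 66 fragments and ranked at 32.1 and 47.6. Thus the ranks of the Socs1 promoter rested on the quantity ranked, and the ratios of all 3 sites (0.739 to 1.06) had intervals that contained the median of all shared sites.

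Downstream of Socs1, the site at 13.2 kb with 2 TTCNNNGAA matches, printed above, was the strongest of the locus by pileup, with 136 fragments in WT and 86 in dKO cells at percentiles 79.7 and 76.1. The site at 3.44 kb was a ChrAcc site in the dKO list only, with 58 fragments at percentile 39.1. The WT list held a peak there with 48 fragments whose 3.84-fold enrichment was just under the criterion of 4. The site at 44.2 kb, in intron 22 of Clec16a, had 49 fragments in WT and 47 in dKO cells and ranked at 42.8 and 73.9, with a ratio of 1.29 (0.848 to 1.97). The WT-only site at 15.6 kb ranked at 2.76, and the dKO list held a peak there at 3.91-fold. Upstream, 4 WT-only sites between -16.9 and -49.8 kb had 24 to 46 fragments at percentiles 1.63 to 32.3, and 2 dKO-only sites at -29.5 and -41.7 kb had 23 and 21 fragments at 15.0 and 10.7. Of these, the sites at -16.9 and -41.7 kb had similar copies elsewhere in the genome, the only such sites among the 83. Copies were matches of at least 90% identity over 80% of 201 bp. The shared site at -49.5 kb ranked at 70.3 and 68.3.

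No peak of either list fell in the 132 kb around Socs2 (chr10:94847996-94879814, minus strand), a STAT5-induced inhibitor of growth hormone and cytokine signalling. The nearest sites lay 59.0 kb beyond the 5′ end, at percentiles 99.0 in WT and 95.02 in dKO cells, and 61.2 kb beyond the 3′ end, at 89.2 and 87.3. The GAS pair of Socs2 printed above therefore lay in chromatin without a called site in naïve cells of both genotypes.

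At Socs3 (chr11:117827393-117831361, minus strand), which acts on the receptors of the IL-6 family, 3 of the 4 shared sites ranked more than 20 points lower in dKO cells. Such a difference was found at 7 of the 47 shared sites of all loci (14.9%) and at 13.7% of all shared sites. In 2 settings 1 of the 3 Socs3 sites fell under 20 points, namely the site at the 5′ end with the top 20000 peaks (−17.6) and the Pgs1 site at 8-fold enrichment or more (−4.53, where it was a site in WT only). The site at the 5′ end (-0.031 kb) had 82 fragments in WT and 35 in dKO cells and ranked at 58.6 and 37.2, with a ratio of 0.576 (0.376 to 0.865) below the median of all shared sites. The site at 17.6 kb, beyond the 3′ end, had 71 and 33 fragments and ranked at 72.9 and 45.9. The site at the start of the upstream neighbour Pgs1 (-16.8 kb) had 47 and 19 fragments and ranked at 48.6 and 8.18. The ratios of the last 2, 0.627 (0.402 to 0.960) and 0.545 (0.302 to 0.947), had intervals that reached just above the median. The strongest site of the locus, at 6.47 kb, ranked higher in dKO cells, with 101 and 62 fragments at percentiles 77.7 and 91.2, a difference that passed 20 points in those 2 settings (20.96 and 25.3) and was −8.22 points when ranked by pileup. By scaled pileup its ratio of 0.828 (0.593 to 1.15) contained the median.

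In the same gene, the site in dKO cells at 0.712 kb was absent from the WT list. It had 33 fragments at percentile 31.4 and a width of 298 bp, and it covered the start of Socs3-001 and the GAS element printed above. At the median ratio of all shared sites 48.8 fragments would stand for it in WT, whose list has no peak there. The WT-only site of the locus, in Pgs1 intron 7 (-44.5 kb), had 40 fragments at percentile 35.9. The start region of Socs3 thus had 1 site in WT and 2 in dKO cells, the shared one lower and the additional one over the coding start. With q under 1e-10 and with the top 20000 peaks, the additional site stood 19.4 and 16.4 points higher in dKO cells. Its 6.68-fold enrichment fell short of the stricter criterion of 8.

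**Figure D4:**
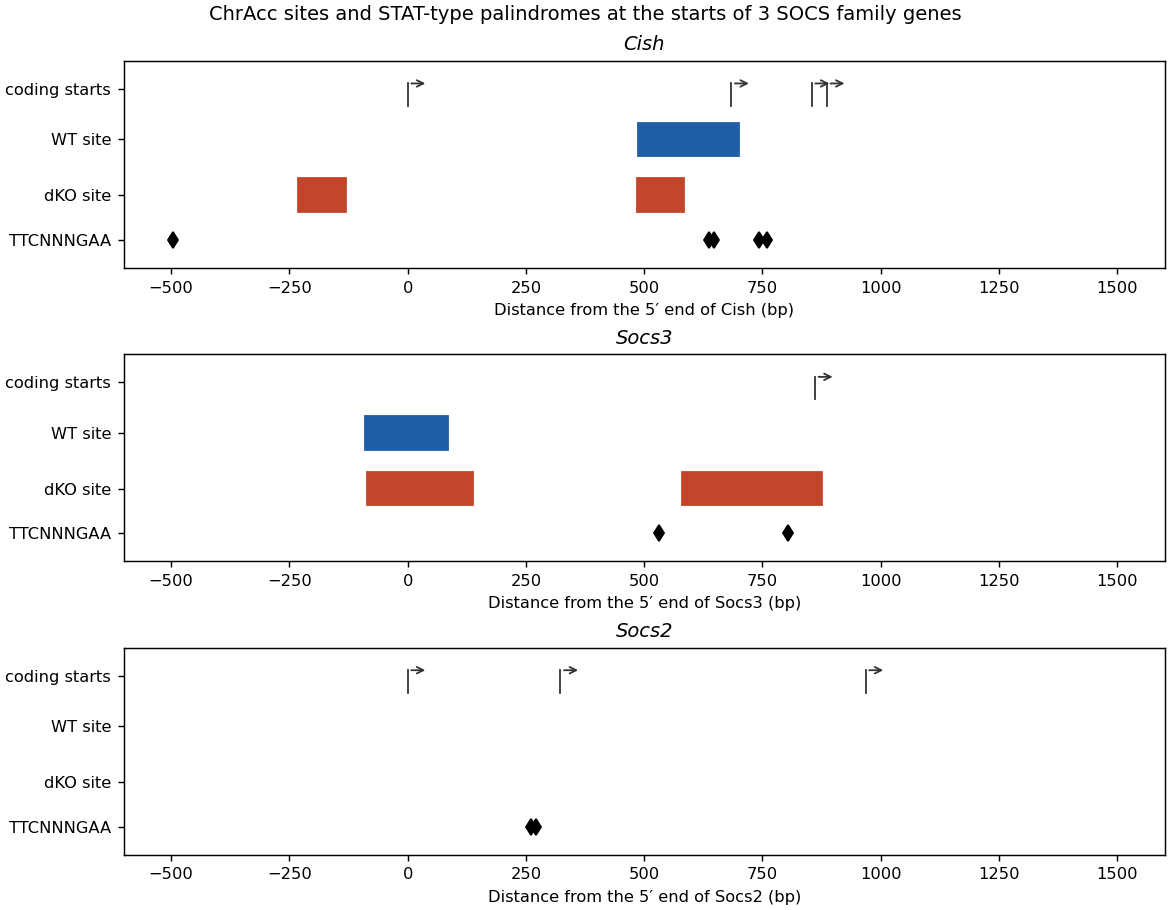
ChrAcc sites (WT in blue, dKO in red), TTCNNNGAA matches (diamonds) and starts of coding transcripts (arrows) by distance from the 5′ end of Cish, Socs3 and Socs2 in bp (x axis). The WT site of Cish covers 2 matches and the dKO site none, the dKO-only site of Socs3 covers 1, and Socs2 has no site.

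Cish (chr9:107198357-107205115, plus strand), an early STAT5 target that damps IL-2 and T cell receptor signalling, held 8 WT and 9 dKO sites, 5 of them shared. The promoter site at 0.548 kb had 55 fragments in WT and 30 in dKO cells and ranked at 44.5 and 29.8, with a ratio of 0.735 (0.455 to 1.17) whose interval contained the median of all shared sites. It was 216 bp wide in WT (chr9:107198843-107199058) and 100 bp in dKO cells, where it ended at position 107198941. The WT site therefore covered the first GAS pair printed above, 43 and 32 bp before the start of Cish-002, and the dKO site ended before it. The summits nearly coincided, at positions 107198905 in WT and 107198903 in dKO cells, and the shortest peak in the dKO list was 97 bp. The difference over the GAS pair is thus 1 of called site edges, and the part of depth and of width in it was not tested. A dKO-only site at -0.210 kb was at the edge of detection, with 19 fragments at percentile 0.133.

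The gene next to Cish on the upstream side is Mapkapk3, a kinase of the p38 pathway, and 4 union sites lay within 406 bp of starts of its transcripts. The site at -15.1 kb had 42 fragments in WT and 46 in dKO cells and ranked at 43.6 and 66.4. Its ratio of 1.48 (0.951 to 2.30) was the highest of the 47 shared sites. The site at -7.09 kb had 60 and 61 fragments and ranked at 36.0 and 68.0, the widest gap in favour of dKO cells among the 47 shared sites, with a ratio of 1.37 (0.944 to 1.99). Both intervals lay above the median of all shared sites. The start at -6.06 kb had 101 and 72 fragments and ranked at 67.8 and 74.5, and a dKO-only site at -15.5 kb had 21 fragments at percentile 10.02. The ratio at Mapkapk3 thus stood above the median ratio at -15.1 and -7.09 kb, with intervals that also contained equal scaled pileup in both pools. It was close to the median ratio at the main start (0.961, 0.700 to 1.31). With all peaks as deposited, the site at -15.1 kb ranked 19.5 points higher in dKO cells.

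On the downstream side of Cish the site at 17.1 kb, with a TTCNNNGAA match, had 66 and 38 fragments and ranked at 68.5 and 57.5. The dKO-only sites at 17.4 and 27.8 kb had 27 and 23 fragments at percentiles 30.6 and 19.7. Further on, 3 WT-only sites followed each other. The site in Hemk1 intron 4 (40.1 kb), printed above, had 110 fragments at percentile 76.8, the strongest of the 24 WT-only sites. Of the 7846 WT-only sites of the whole list, 272 ranked as high or higher, but this site was picked as the highest of the 24. At the median ratio of all shared sites 74.4 fragments would stand for it in the dKO pool, whose list has no peak there. It was 108 bp wide, and the shortest peak in the dKO list was 97 bp, so the part of width in its absence was not tested. The sites at the starts of Hemk1 (42.4 kb) and 6430571L13Rik (44.5 kb) had 60 and 41 fragments at percentiles 32.4 and 18.7 and were 105 and 121 bp wide.

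The Tcf/Lef core ATCAAAG was found within 100 bp of the summit at 2 of 83 union sites (2.41%, 0.663 to 8.37%), compared with 3.61% of all union sites. TTCNNNGAA was found at 7 (8.43%, 4.15 to 16.4%), compared with 5.97%, and these lay at Cish (2), Jak1 (2), Socs1, Socs3 and the Stat4 flank. The palindrome with the wider spacing that STAT6 prefers was found at 8 (9.64%, 4.97 to 17.9%), compared with 4.49%. The other sequences searched on both strands were TGTGGTT of Runx factors (12.05% against 10.48%), CCGGAAG of ETS factors (3.61% against 8.32%), TGANTCA of AP-1 (4.82% against 6.38%) and the CTCF core (13.3% against 17.2%). Apart from the STAT6 spacing, each share at the loci had an interval that contained the share of all union sites. Since 83 sites were searched for 7 sequences, no share is called particular to the loci.

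The other genes of the pathway were described in the same way, namely Stat2 and Stat6, the other JAKs, Socs4 to Socs7, and further inhibitors and receptors, 34 genes in all. Their windows held 273 union sites, of which 182 were shared, 61 were WT-only (25.1% of the WT sites, against 27.6% of the whole list) and 30 dKO-only (14.2% of the dKO sites, against 14.4%). More WT than dKO sites were found at 19 genes, more dKO sites at 5 and equal numbers at 10, in lists of 28472 WT and 24363 dKO sites. A site lay within 1 kb of the 5′ end of 27 genes in WT and 25 in dKO cells. Of the receptor chains for IL-2, IL-7 and IL-15, the start sites were found in both lists and ranked at 83.6 in WT and 85.6 in dKO cells for Il2rb, 76.5 and 87.8 for Il2rg, 29.998 and 17.4 for Il7r, 26.5 and 6.60 for Il2ra, and 7.40 and 23.7 for Il15ra. The start sites of 3 genes were absent from the dKO list, namely Il6ra and Il6st, the IL-6 receptor chains, and Ptpn11, a phosphatase. They ranked at 35.9, 6.43 and 34.8 in WT. That of the interferon receptor gene Ifngr2 was found in the dKO list only (1.16). Of all union sites within 1 kb of a protein-coding start, 9347 were shared, 1778 WT-only and 459 dKO-only, so such absences were not particular to these genes. Of the shared sites of these genes, 16 (8.79%, against 6.75% of all shared sites) ranked at least 20 points higher in dKO and 29 (15.9%, against 13.7%) at least 20 points higher in WT cells.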

How the data were processed

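DNase-seq reads of 3 WT and 2 dKO replicates were aligned by the authors to mm9 with Bowtie2 (2.2.5 in the submitters' processing notes), kept above a mapping quality of 10 and pooled per genotype, and peaks were called with MACS2 2.1.1.20160309 for fragments of both read ends, with no control library. The deposited lists give for each peak the pileup, a signal in fragments over the summit, the fold enrichment, a ratio to the local background, and −log10 p and q values. MACS2 kept 1 fragment per position. The file headers list each pool's fragments at 2 times the number kept. The depth limits every value: 83923734 fragments for WT and 62242963 for dKO.

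ChrAcc sites were merged with at least 1 bp of overlap. Fold enrichment was ranked within each list. Pileup ratios scaled to the pools' fragments, with exact binomial 95% intervals, were added after the data had been seen. Shares have Wilson intervals. The median rank difference has a 95% interval taken from the ordered values of the sites. Sequences and genes came from the mm9 genome and its GENCODE annotation, in which Lnk was not found under that name (its synonym Sh2b3 was), and copies from blastn 2.17.0 (at least 90% identity over 80% of 201 bp). Named sites were those within 1 kb of a start of the 9 genes, those in 1 list only (beyond the 30 strongest by range), those differing by 20 points, the strongest of each locus and those with a GAS or Tcf/Lef match; the neighbouring genes and the receptors named were chosen after their values were seen. The members, lists and rules were chosen with earlier results of these data known. Overlap, motif search and the interval of the ratio were tested on simulated data, and ranking was not. Python 3.11.15 with numpy 2.4.6, pandas 2.3.3, scipy 1.17.1, pysam 0.24.0 and matplotlib 3.10.9 was used. Replicate read counts and RNA levels were not analysed here, and 1 gene of the pathway list is not reported here.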

Additional observations from a re-analysis of the deposited data

How the results depend on the processing

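The lists rest on pools of different depth, so an absent site shows only that no peak passed in that pool, and weak sites changed most with the criteria. With a fold enrichment of at least 8, the loci held 32 WT and 28 dKO sites, 9 WT-only and 5 dKO-only sites, 3 shared sites ranking 20 points higher in WT (6 in dKO) and 3 sites with TTCNNNGAA. With q under 1e-10, 4 sites were dKO-only. With the 20000 strongest peaks of each list, 10 sites were WT-only, 11 shared sites ranked 20 points higher in dKO and 4 in WT cells. With flanks of 10 kb, there were 44 WT sites, 8 WT-only and 6 dKO-only sites and 4 with TTCNNNGAA, since fewer sites were in range. Ranked by pileup, 11 shared sites stood 20 points higher in WT and the median difference was −3.90 points. Within 50 bp of the summit, 0 sites held ATCAAAG and 1 held TTCNNNGAA. Where no construction of the setting gives it, the cause was not tested. The direction of no named difference of 20 points or more was reversed under any setting run. Of the 61 named sites, 30 were in 1 list only, with the other side set to percentile 0. The direction of those sites could not turn while they stayed in 1 list, so they say nothing about robustness. All peaks as deposited, an overlap of 50%, a gap of up to 100 bp and ranks by −log10 p moved none of the counts by over 1.5 times. Of 61 named sites, 9 changed sides of the 20 points when ranked by pileup, 3 when ranked by −log10 p and 9 with all peaks as deposited. Of those with a value, 11 of 41 did so with the 20000 strongest peaks, 8 of 52 with q under 1e-10 and 5 of 27 with a fold enrichment of at least 8. No paired analysis was possible because each genotype is 1 pooled list, and for the same reason no replicate could be left out.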
